A study of Dunaliella tertiolecta UTEX 'LB 999' with 2 samples.

Results

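Transcripts for the uptake and use of nitrogen, sulfur and phosphate, 6 of 234 listed contigs, were followed in Dunaliella tertiolecta, a single-celled green alga of salt water that swims with flagella and has no cell wall. They are every contig in the authors' lists that carries the gene name NAR5, DUR3A, AAT2, OASTL1 or PHO1, or whose protein description contains the words sulfite reductase. A contig is a transcript assembled from reads, and its name is that of its best protein hit in Chlamydomonas reinhardtii, another green alga. The samples used here were 2 RNA preparations of strain UTEX LB-999, held at steady state in a chemostat at 25 °C with 0.5 M NaCl under 40 µmol photons m-2 s-1. RNA was taken 4 h and 8 h after the light had been raised to 400 µmol photons m-2 s-1, with 1 library each. Both groups had thus been shifted to the higher light, and no library from before the shift was analysed here. With 1 library per time point, every difference below is between 2 libraries, has no replicate check and carries no p-value of its own. Every listed contig had at least a 2-fold difference and, in the authors' deposited table, a p of at most 0.04995. A large ratio and a small p are thus conditions of being listed and not findings, and the p-values of that table are given below as a description only.

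Algae take up nitrogen as nitrate, ammonium or urea and build it into amino acids, from which aminotransferases pass the amino group on. Sulfate is reduced in the plastid to sulfite and then by sulfite reductase to sulfide, which O-acetylserine (thiol) lyase joins to O-acetylserine to give cysteine. Phosphate is taken up directly or freed from organic phosphate esters by phosphatases, among them alkaline phosphatases. Nitrogen, sulfur and phosphorus are all needed in larger amounts when cells grow faster.

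At 8 h, 5 of the 6 contigs were listed as higher and 1, the urea transporter DUR3A, as lower. Among all listed contigs 57.3% were higher and 42.7% lower. The ratio of levels at 8 h over 4 h was 6.24 for sulfite reductase, 2.54 for OASTL1, 2.53 for AAT2, 2.24 for NAR5, 2.01 for PHO1 and 0.399 for DUR3A. Levels are the authors' RPKM, that is, read numbers divided by contig length and library size, and describe a transcript's share of its library, so that the amount of RNA per cell was not measured. The 95% intervals of the ratios, which cover counting error only, excluded equal levels for all 6 contigs, against 52.1% of all listed contigs. The 6 contigs were also longer than most (median 1891 bases, against 1095 over all listed contigs) and held more reads in the higher library (median 44.2, against 16). The part of length and reads in that count was not tested. The median size of their log2 ratio was 1.33, and that of all listed contigs 1.45.

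**Figure D1:**
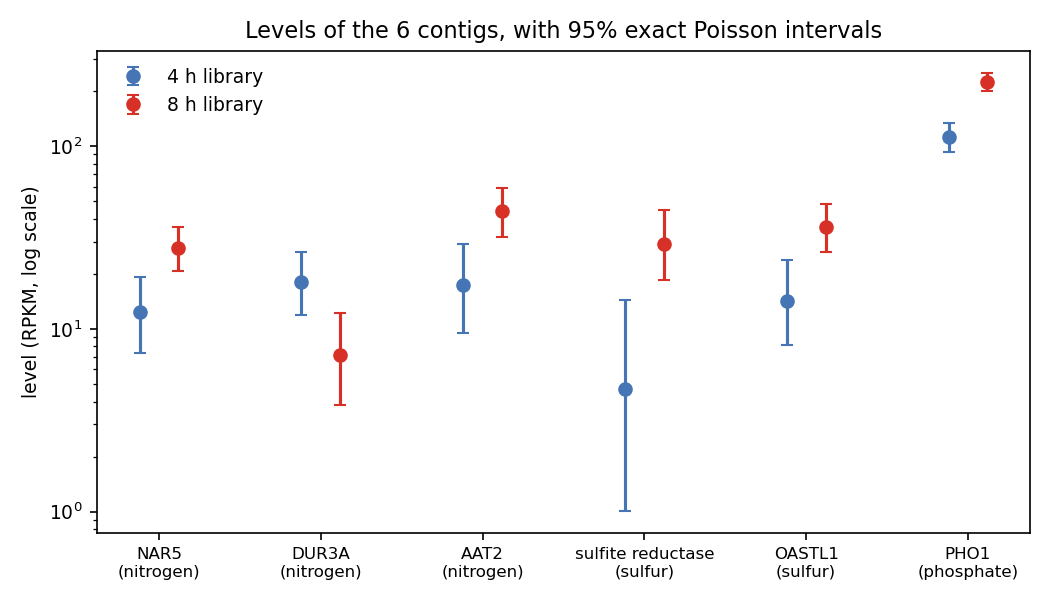
Level of each of the 6 contigs in the 4 h library (blue) and the 8 h library (red), in RPKM on a log scale, with 95% exact Poisson intervals on the reads. The red point lies above the blue one for 5 contigs and below it for DUR3A, whose level was 18.1 RPKM at 4 h and 7.20 RPKM at 8 h.

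The transporters for nitrogen went in opposite directions. NAR5, whose best hit is described as a nitrate transporter and which would bring nitrate into the cell, had a level of 12.4 RPKM at 4 h and 27.7 RPKM at 8 h. These levels rest on 19.2 reads at 4 h and 52.1 at 8 h, and the ratio was 2.24 (95% interval 1.31 to 4.04). The intervals of the level itself, 7.37 to 19.1 RPKM at 4 h and 20.6 to 36.2 RPKM at 8 h, did not overlap. Overlap of level intervals was not counted over all listed contigs, which were chosen for a difference. It is therefore given here and below as a description only. In the authors' deposited table the p of NAR5 was 0.0185 and its FDR 0.135. Its protein hit was the weakest among the 6, with an E value of 1e-30 on a contig of 2792 bases, so its name is the least firm.

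DUR3A, described as a solute:sodium symporter for urea, belongs to a family that carries urea into cells in yeast and plants. Its level was 18.1 RPKM at 4 h and 7.20 RPKM at 8 h, from 27.0 and 13.1 reads. It was therefore 2.51-fold lower at 8 h (1.26 to 5.32). The 4 h interval of the level ran from 11.9 to 26.3 RPKM and the 8 h interval from 3.82 to 12.3 RPKM, so these overlapped slightly, although the interval of the ratio excluded 1. In the authors' deposited table DUR3A had a p of 0.0370 and an FDR of 0.209, the highest FDR of the 6 contigs.

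Set against each other within a library, the NAR5 level was 0.684 times that of DUR3A at 4 h (0.356 to 1.27), which includes equal levels. At 8 h NAR5 was 3.84 times as high as DUR3A (2.07 to 7.72). The ratio of NAR5 at 8 h over 4 h was 5.61 times that of DUR3A (2.26 to 14.5), a comparison in which the scaling of the libraries cancels. Since NAR5 came from the higher list and DUR3A from the lower one, a difference in this direction follows from the lists.

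AAT2, an alanine aminotransferase, is an enzyme of amino acid metabolism and not of uptake. It moves an amino group between alanine and 2-oxoglutarate, giving pyruvate and glutamate, or in the reverse direction. Its level was 17.3 RPKM at 4 h and 43.9 RPKM at 8 h, on 14.0 and 43.0 reads, a ratio of 2.53 (1.36 to 5.01). The level intervals, 9.47 to 29.1 RPKM and 31.7 to 59.1 RPKM, did not overlap. AAT2 was the contig of the 6 whose raw total was whole. In the authors' deposited table its FDR was 0.0142.

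Both listed contigs of sulfur assimilation were higher at 8 h, and they code for consecutive enzymes. The sulfite reductase contig, of 1102 bases, had a level of 4.68 RPKM at 4 h and 29.2 RPKM at 8 h. The confidence written in its contig name was 0.2, the lowest of the 6, against 0.517 to 0.769 for the others. Its ratio of 6.24 was at place 9 among the 134 in the higher list and rested on 2.87 reads at 4 h and 21.7 at 8 h, which gives a wide interval of 1.82 to 31.6. The 4 h level was accordingly poorly known, between 1.01 and 14.3 RPKM, while the 8 h level lay between 18.6 and 44.8 RPKM. No overlap remained between these intervals. In the authors' deposited table its p was 0.000236 and its FDR 0.00416.

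OASTL1, described as O-acetylserine (thiol) lyase isoform C, makes the cysteine into which sulfide is built. It had a level of 14.2 RPKM at 4 h and 36.2 RPKM at 8 h, from 14.8 and 45.4 reads, and a ratio of 2.54 (1.35 to 4.78). The intervals of its level ran from 8.10 to 23.9 RPKM at 4 h and from 26.1 to 47.9 RPKM at 8 h, without overlap. In the authors' deposited table its FDR was 0.0335. The ratio of sulfite reductase was 2.46 times that of OASTL1, but with an interval of 0.593 to 14.4 a difference between these enzymes was not detectable at this depth. The sulfite reductase level was 0.329 times that of OASTL1 at 4 h (0.0627 to 1.20) and 0.808 times at 8 h (0.473 to 1.41), and both intervals include equal levels.

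PHO1 was the most abundant of the 6 in both libraries. Its best hit is described as an alkaline phosphatase, an enzyme that frees phosphate from organic esters, whereas in land plants the same symbol names an unrelated phosphate exporter. The level was 111 RPKM at 4 h and 224 RPKM at 8 h. With 119 reads at 4 h and 289.7 at 8 h it was also the most precisely measured, at a ratio of 2.01 (1.62 to 2.51). Its level intervals, 92.4 to 134 RPKM and 199 to 252 RPKM, lay far apart. In fold it stood near the end of the higher list, at place 132 of 134, just inside the 2-fold limit of the authors. In level it was at place 4 of all 234 listed contigs at 8 h and at place 10 at 4 h. In the authors' deposited table its p was 1.69e-09 and its FDR 7.59e-08, the lowest of the 6. An FDR under 0.05 in the authors' deposited table was reached by 4 of the 6, all but the transporters NAR5 and DUR3A, and by 32.5% of all listed contigs.

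**Figure D2:**
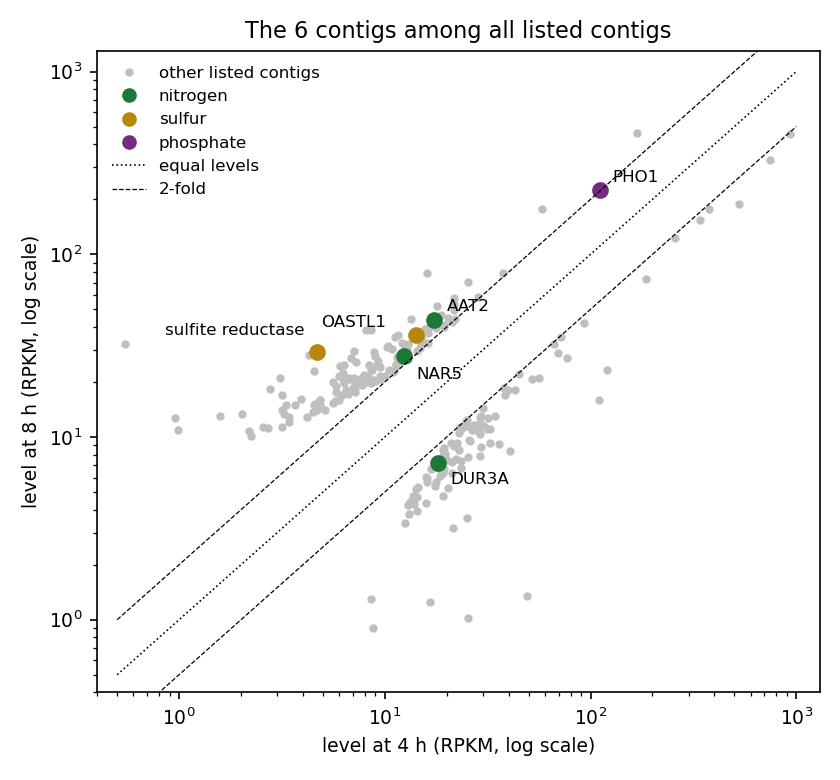
Level at 8 h against level at 4 h, both in RPKM on log scales, for all 234 listed contigs, with the 6 contigs coloured by nutrient. Dashed lines mark 2-fold differences. PHO1, at 111 and 224 RPKM, lies on the upper dashed line far from the other 5, and of the 6 contigs sulfite reductase lies farthest above it.

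By nutrient, the summed level of the contigs for nitrogen was 47.7 RPKM at 4 h and 78.7 RPKM at 8 h, a ratio of 1.65 that joins 2 higher contigs and 1 lower one. For sulfur the sum was 18.9 RPKM at 4 h and 65.4 RPKM at 8 h, a ratio of 3.45. Both sulfur contigs came from the higher list, so a ratio of at least 2 follows from the lists. The sulfur sum rests on 17.6 reads at 4 h and 67.1 at 8 h. No interval was computed for the sums, so the nutrients cannot be ranked by these ratios. For phosphate, the level of PHO1 alone, the ratio was 2.01. PHO1 held 62.6% of the summed level of the 6 contigs at 4 h and 60.9% at 8 h.

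The order of the levels below PHO1 differed between the libraries. At 4 h PHO1 was first, and DUR3A, AAT2, OASTL1, NAR5 and sulfite reductase followed. PHO1 was 6.17 times as high as DUR3A (4.04 to 9.77), but no later neighbour in that order differed from the next beyond counting error. At 8 h the order was PHO1, AAT2, OASTL1, sulfite reductase, NAR5 and DUR3A. PHO1 was 5.11 times as high as AAT2 (3.70 to 7.22) and NAR5 3.84 times as high as DUR3A, and the neighbours between AAT2 and NAR5 had ratios whose intervals included 1. DUR3A thus went from the second place to the last, and sulfite reductase from the last to the fourth. Since DUR3A came from the lower list and the others from the higher list, its last place follows from the lists and the levels at 4 h. The order of sulfite reductase and NAR5 was within counting error in both libraries.

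All 15 pairs of the 6 contigs were compared by the ratio of their ratios, with exact conditional intervals on the reads. In the 5 pairs with DUR3A the interval excluded 1, also after Bonferroni widening over the 15 pairs. Since DUR3A came from the lower list and the other 5 from the higher list, those differences follow from the lists. In the 10 pairs among the higher contigs no interval excluded 1. The widest point difference there was between sulfite reductase and PHO1, at 3.10 times (0.877 to 15.97), and the closest pair was OASTL1 and AAT2, at 1.00 times (0.386 to 2.46). These intervals leave room for differences of more than 2-fold in each pair, so they do not show that the 5 contigs changed alike.

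The 6 contigs shared a feature that the choice of names did not use. By the contig names each came from a locus with several assembled transcripts, between 3 for AAT2 and 11 for NAR5, whereas 133 of all 234 listed contigs were the single transcript of their locus. No other listed contig came from the same loci. Raw totals were fractional in 5 of the 6 contigs and in 73 of all 234. They were whole in 102 of the 133 contigs from loci of a single transcript and in 59 of the 101 others. Whether reads were divided between transcripts was not tested, and the values above are those of 1 assembled transcript and not of the whole gene.

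The authors' raw totals count all libraries in their model, and they held reads from neither time point. That excess made up 24.2% of the raw reads of NAR5, 19.9% for DUR3A, 10.5% for OASTL1, 8.06% for AAT2, 5.33% for PHO1 and 0.0664% for sulfite reductase. The transporters NAR5 and DUR3A thus had the largest shares, whereas the levels and ratios above use the reads of the 4 h and 8 h libraries alone.

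**Figure D3:**
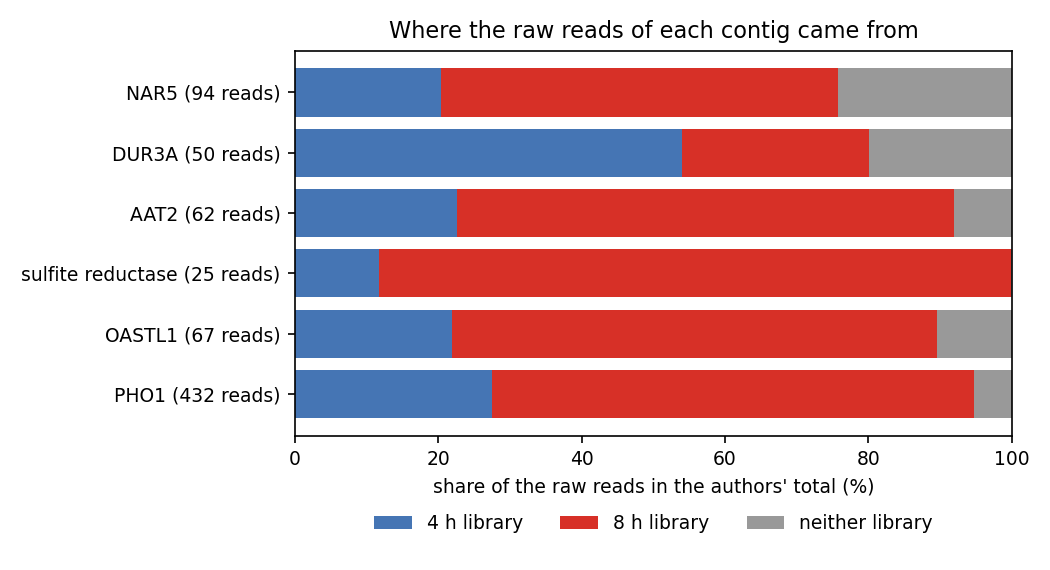
Share of each contig's raw reads, in percent of the authors' total (given in reads beside each name), that came from the 4 h library (blue), the 8 h library (red) or neither (grey). The red part is the largest for all contigs but DUR3A, and the grey part runs from 0.0664% for sulfite reductase to 24.2% for NAR5.

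Related genes were sought with word lists for nitrogen, amino acids, sulfur, methionine with glutathione and sulfolipid, and phosphate. These 5 lists matched 13 contigs, the 6 included, of which 8 were higher and 5 lower, and the interval of the ratio excluded 1 in 6 of the higher and 2 of the lower ones. Both counts, 8 of 13 each, lie near the shares of all listed contigs, of which 57.3% were higher and 52.1% had an interval that excluded 1. The counts include the 6 contigs, 5 of them higher and all with such an interval. They therefore do not describe the other matches alone, most of which were lower or had an interval that included 1. No listed contig matched the words for ammonium transporters, nitrate or nitrite reductase, glutamine or glutamate synthase, sulfate transporters, sulfurylases or phosphate transporters. Contigs outside the authors' lists were not analysed here, so nothing follows for those genes. The words also do not cover these pathways in full. A SurE-like phosphatase/nucleotidase and a phosphoesterase, both lower, were listed but not matched. The same holds for a dihydrodipicolinate reductase, which was higher.

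**Figure D4:**
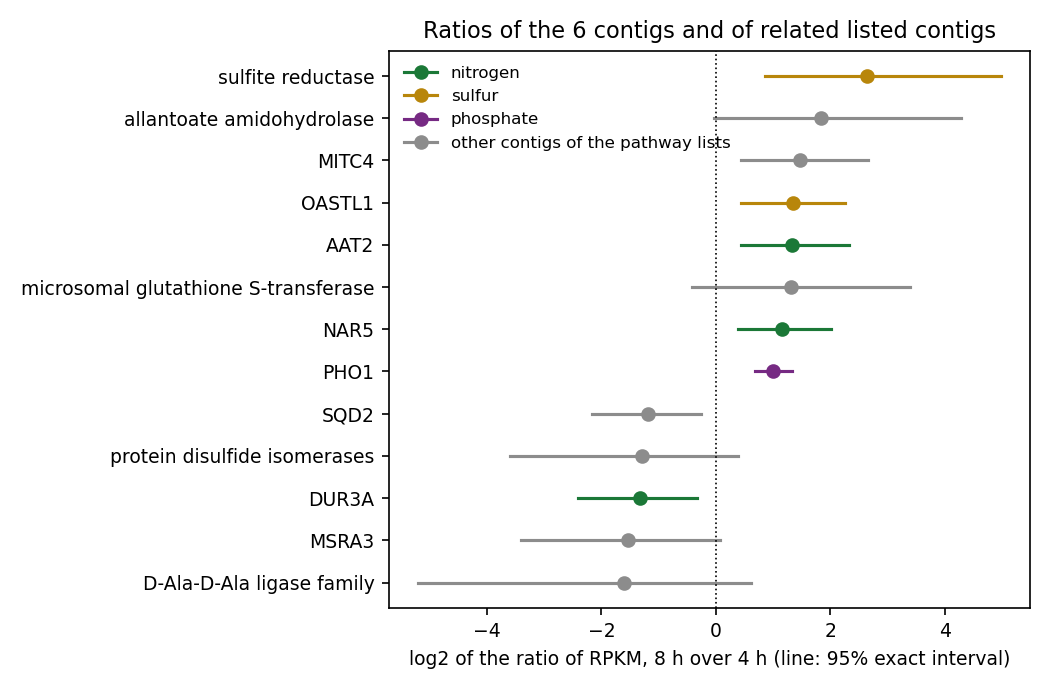
Ratio of the level at 8 h over that at 4 h on a log2 scale, with 95% exact intervals, for the 6 contigs (coloured by nutrient) and the 7 other contigs that the word lists matched (grey). The intervals of all 6 coloured contigs lie to one side of the dotted line of equal levels, and 2 of the 7 grey ones, MITC4 and SQD2, do so.

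In the nitrogen list the other contig was an allantoate amidohydrolase, which frees ammonium from a breakdown product of purines. Its level was 3.16 RPKM at 4 h and 11.3 RPKM at 8 h, on 3 and 13 reads, and the ratio of 3.57 had an interval of 0.982 to 19.6 that includes 1. In the amino acid list a contig of the D-alanine--D-alanine ligase family was 3.05-fold lower (0.650 to 36.8), at 14.4 RPKM at 4 h and 4.72 RPKM at 8 h. Its protein hit was weak, with an E value of 2e-08. The sulfur list also matched a protein disulfide isomerase, a folding enzyme taken in by the letters of its description, which was 2.43-fold lower (0.761 to 12.1).

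A further 4 contigs belonged to the later use of sulfur, 2 higher and 2 lower. SQD2, which makes the sulfolipid of plastid membranes, had 21.0 RPKM at 4 h and 9.22 RPKM at 8 h and was 2.27-fold lower (1.20 to 4.47). The E value of its hit was 3e-20, and its FDR in the authors' deposited table was 0.211. Sulfolipid holds sulfur and no phosphorus, and in plants it stands in for phospholipids when phosphate is scarce. MSRA3, which repairs oxidized methionine in proteins, had 22.1 RPKM at 4 h and 7.58 RPKM at 8 h, a level 2.91-fold lower with an interval of 0.954 to 10.5.

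MITC4, described as a carrier of the methyl donor S-adenosylmethionine, was higher, at 6.50 RPKM at 4 h and 18.0 RPKM at 8 h, a ratio of 2.78 (1.35 to 6.36). Its E value of 6e-15 makes its name uncertain. A microsomal glutathione S-transferase, which joins glutathione to reactive compounds, had 15.7 RPKM at 4 h and 38.8 RPKM at 8 h, a ratio of 2.47 with an interval of 0.75 to 10.5.

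The wider list of membrane transport matched 11 contigs, 8 higher and 3 lower, NAR5 and DUR3A among them. One of the 8, UBC10, is a ubiquitin carrier matched by its wording. The largest other ratios were those of AGO2, at 6.76 (0.742 to 260.2) and with a description that joins different proteins, and of a magnesium transporter, at 4.12 (1.17 to 22.2). On the lower side stood a vacuolar iron transporter family contig, 3.70-fold lower (0.808 to 41.9), and MTP1, a zinc transporter, 2.42-fold lower (0.755 to 9.04). DUR3A was the lower transporter of this list whose interval excluded equal levels. The list holds only contigs matched by its words and is not complete. MTP2, which it did not match, was also lower, with a ratio of 0.367 (0.138 to 0.886). Unmatched transport genes were not counted in either direction, so DUR3A is not shown to stand alone.

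The contigs with the most similar levels were found by distance in the plane of the log2 level at 4 h and at 8 h, over these 2 libraries. The nearest annotated contig to NAR5 was a KH domain-containing protein, at 12 RPKM at 4 h and 27.7 RPKM at 8 h. DUR3A lay nearest to a Nup93/Nic96-like nucleoporin contig, at 17.9 and 7.26 RPKM. OASTL1 lay nearest to PTOX2, a plastid oxidase, at 14.6 and 35.5 RPKM, and AAT2 to a polyketide cyclase and lipid transport protein, at 18.8 and 46.4 RPKM. Sulfite reductase lay nearest to ERD2A, described as endoplasmic reticulum retention defective 2B, at 4.28 and 28.3 RPKM. PHO1 had no near neighbour, since the closest contig, the zinc transporter ZRT3 with 58.1 and 177 RPKM, was 1.00 log2 units away, against at most 0.14 log2 units for the other 5.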

How the data were processed

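Stranded mRNA libraries were made from 2 culture samples, per the labels' protocols. Partek was used, per the submitters' processing notes, which give no version of it. How reads were aligned and contigs assembled is not given in the sources used here, and no contig sequence was at hand to show. The authors' deposited RPKM means stand under headings that name neither sample. The first was read as 8 h and the second as 4 h because their quotient is the deposited ratio, which is marked 8 vs 4, and nothing else fixes that assignment. The authors' deposited tables also give a p-value and an FDR, the ratio with its natural log, a fold change written as a signed score in the lower list, the E value score of the hit, and raw totals as estimated counts that are not always whole, per the file headers.

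Reads per library were computed back from RPKM and contig length, scaled by the deposited raw maximum, and imply 674129 reads at 8 h and 556037 at 4 h. Totals within 0.001 reads of a whole number were called whole. Intervals are 95% Clopper-Pearson intervals of a share of reads, turned into ratios, exact Poisson intervals for levels, and exact conditional odds ratios for pairs, with reads rounded to whole numbers. Of these, only the intervals of ratios from shares of reads were tested on simulated data. The simulated reads were whole and, unlike the listed contigs, not selected for a 2-fold difference. All the intervals cover counting error only.

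The 6 contigs, the word lists and the rule for named contigs were chosen with earlier results of these data known. That rule took all 6, every other contig of the first 5 word lists, the 2 largest folds per direction among other transporters, and the nearest annotated contig to each of the 6. Alternatives were pseudocounts, unscaled reads, a minimum of 10 reads, a 4-fold limit, an E value under 1e-20, an FDR under 0.05 and whole raw totals. The calculations ran in Python 3.11.15 with scipy 1.17.1, pandas 2.3.3 and numpy 2.4.6, and plots were drawn with matplotlib 3.10.9.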

Additional observations from a re-analysis of the deposited data

Results flagged for a closer look

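In 5 of the 6 contigs the raw total exceeded the sum of both time points by over 3 reads, the limit for a count of 0, as it did in 107 of all 234 listed contigs. This surplus was 23 reads for PHO1, 22.8 for NAR5, 9.95 for DUR3A, 7.04 for OASTL1 and 5.0001 for AAT2. For sulfite reductase the excess was 0.0163 reads, so that nearly all of its 24.6 raw reads came from the 2 time points. The excess was 9.29% of the raw reads of the 6 contigs together and 15.2% over all listed contigs. By list it was 9.72% in the higher list, which held 5 of the 6 contigs, and 20.7% in the lower list. Which libraries supplied these reads is not described in the labels used here.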

How the results depend on the processing

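No paired analysis was possible because each time point had 1 library. All 18 alternative values of the ratios, under pseudocounts of 1 and 0.1 RPKM and with reads not scaled to library size, kept their direction and stayed within the interval of the reported ratio. Counts changed where the alternative left contigs out by its own construction. Under a 4-fold limit 1 higher and 0 lower contigs remained, 1 of them with an interval that excluded 1, and the median size of the log2 ratio was 2.64. That contig was sulfite reductase. With whole raw totals required 1 higher and 0 lower contigs were left, 1 with such an interval, and that contig was AAT2. With an FDR under 0.05, taken from the authors' deposited table, there were 0 lower contigs left. Of 41 alternative values 33 kept close to the reported one and none was reversed. Only the 18 values of the ratios could have been called reversed. A pseudocount cannot reverse a ratio, and leaving out the scaling multiplies each ratio by 1.21. No ratio of at least 2-fold could thus have changed direction. The minimum of 10 reads and the E value limit left out none of the 6 contigs. Rounding fractional reads down, an alternative chosen after seeing the data, left all 6 intervals on their side of 1. The sulfite reductase ratio rests on 2.87 reads at 4 h and has an interval of 1.82 to 31.6.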

Other observations

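The reads outside both time points came at a higher RPKM per read. For the 5 contigs with an excess over 3 reads, an excess read was worth between 4.53 and 5.30 RPKM times kilobase on average, against 1.80 in the 4 h library and 1.48 in the 8 h library, so at least some of the libraries behind them were shallower. In summed RPKM the excess was 59.5 for PHO1, 37.9 for NAR5, 19.2 for OASTL1, 18.2 for AAT2 and 16.7 for DUR3A. These are sums over an unknown number of libraries and cannot be set against the level in a single one.

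In Chlamydomonas reinhardtii the identifiers of nuclear genes begin with the number of their chromosome. The best hits of sulfite reductase, OASTL1 and PHO1 all carry the number of chromosome 8, so 3 of the 6 contigs do, and 10 of all 234 listed contigs do. This describes the genome of another alga, was noticed after the values were seen and was not tested. Where these genes lie in Dunaliella tertiolecta was not analysed here.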
